A study of Homo sapiens with 6 samples.

Results

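The translation factors and tRNA synthetases were followed in SW480 cells, a human colorectal cancer line, grown on a soft or a stiff hydrogel. They were taken from the deposited mRNA table by symbol, as every gene whose symbol begins with EIF or EEF, or is a single letter or EP followed by ARS with or without a final 2. The rule took 75 of the 8529 genes of the table. Of these, 39 were classed by symbol with initiation and 11 with elongation, 12 are cytosolic synthetases and 13 are mitochondrial synthetases. EPRS, FARSA, FARSB and TARSL2, which are synthetases with other spellings, are given with the other genes of the pathway. Genes of these families that the table lacks, such as EIF2AK3, EIF3E, EIF3J, EEF1D, NARS and TARS, are not covered. All 6 libraries came from wild-type (WT) SW480 cells kept for 72 h without CO2 on coated plates, 3 on 2 kPa and 3 on 25 kPa hydrogels. Both groups shared the line and the L-15 medium. The labels describe triplicates of each stiffness without naming separate cultures, so the p-values measure the spread between these libraries, which may be technical.

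Translation starts when the initiator tRNA, carried by the GTP-binding factor eIF2, joins the small ribosomal subunit with eIF1, eIF1A, eIF3 and eIF5. The loaded subunit is brought to the mRNA cap by eIF4E, eIF4G and the helicase eIF4A. Stress kinases restrain the process by phosphorylating the alpha subunit of eIF2, which blocks its recharging by eIF2B and sets off the integrated stress response. The 4E-BP repressors keep eIF4E from eIF4G until mTOR signalling releases them. During elongation eEF1A brings each aminoacyl-tRNA, made by the synthetase of that amino acid, and eEF2 moves the ribosome along, while mitochondria use synthetases that are encoded in the nucleus, mostly by genes of their own. KARS and GARS encode both the cytosolic and the mitochondrial enzyme and are counted here with the cytosolic ones.

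None of the 75 genes passed the test between 25 kPa and 2 kPa. At an adjusted p under 0.05 in limma, 0 of 75 were called, against 0.117% of all genes tested (10 of 8529), and the smallest adjusted p among the 75 was 0.349, for the seryl synthetase SARS. At an unadjusted p under 0.05, 5 of the 75 (6.67%) were higher at 25 kPa, against 6.96% of all genes, and 0 were lower, against 3.19%. These 5 were SARS, the cap-binding protein EIF4E, the eIF2 subunits EIF2S1 and EIF2S2, and the isoleucyl synthetase IARS. In 9 of the 75 (12%) every 25 kPa library lay above every 2 kPa library, against 11.2% of all genes, and in 0 every 25 kPa library lay below, against 4.78%. The shares of higher genes were therefore near those of the whole table. The mean log2 value was higher at 25 kPa in 54 of 75 genes (72.0%), against 59.6% of all genes, whereas with the libraries scaled to equal sums it was higher in 36 of 75, against 45.6% of all genes. The median log2 fold change was 0.10 over the 75 and 0.05 over all genes, and -0.008 and -0.02 with equal sums.

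**Figure D1:**
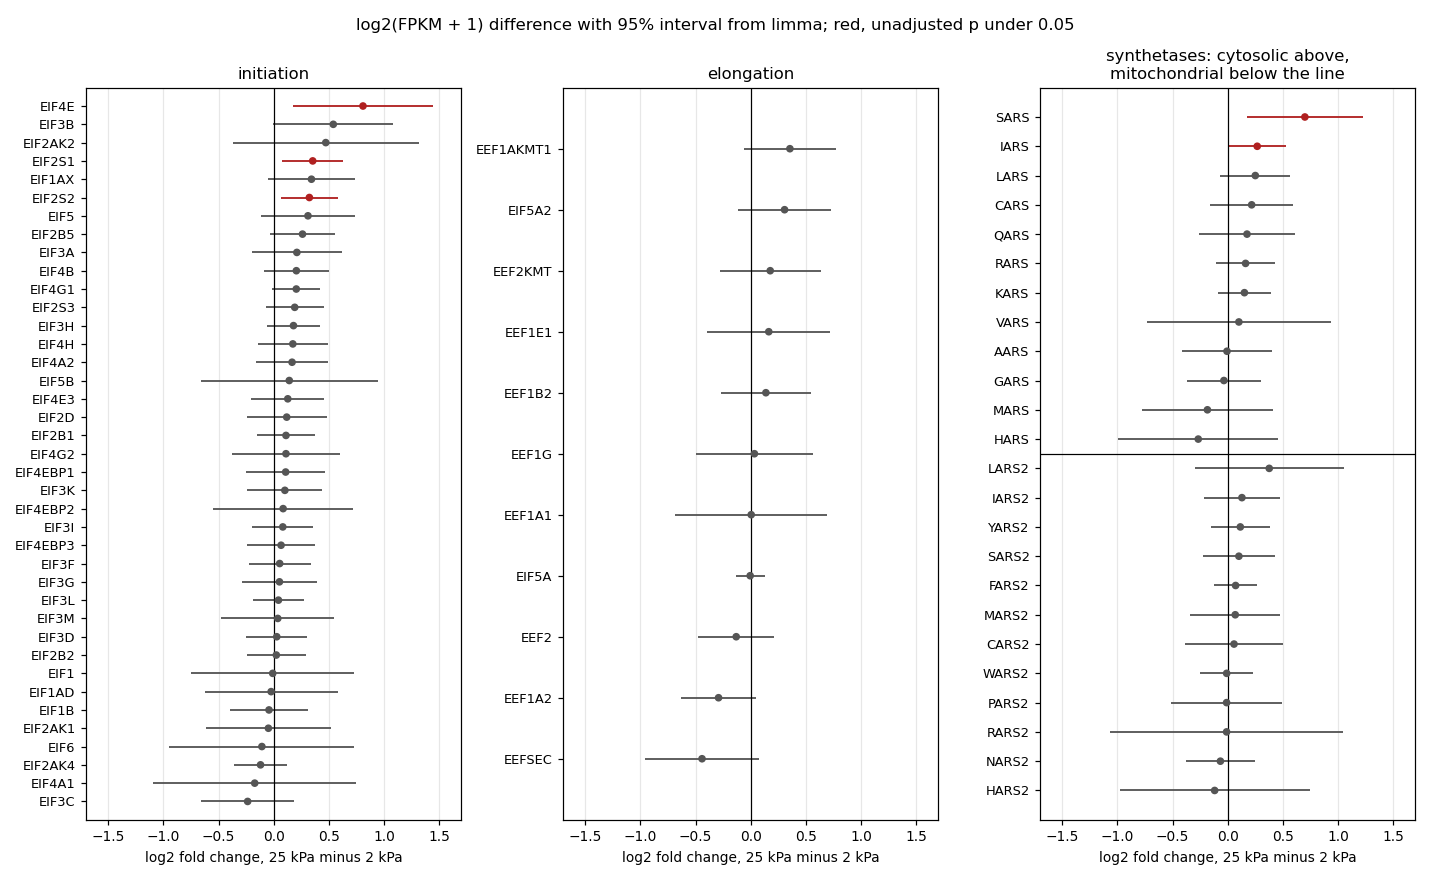
Log2 fold change (25 kPa minus 2 kPa, on log2(FPKM + 1)) of 74 of the 75 genes, by class, with points for the limma estimates and bars for the 95% confidence intervals. The intervals of 5 genes, SARS, EIF4E, EIF2S1, EIF2S2 and IARS, lie above 0, and no interval lies below 0.

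Several measures of the whole table bear on these values. The FPKM summed over the 8529 genes to between 201030 and 235728 in the 2 kPa libraries and between 231714 and 263028 in the 25 kPa libraries, with the lowest and the highest sum in the libraries of replicate 2. Of the markers of colon epithelium and SW480, 8 of 11 were in the table and summed to between 4481 and 4811 FPKM at 2 kPa and between 3690 and 4862 FPKM at 25 kPa. They were led by keratins and EPCAM. KRT18 overlapped between the groups, but KRT19 read 1615, 1448 and 1623 FPKM at 2 kPa and 909, 1402 and 1084 FPKM at 25 kPa. It was lower at 25 kPa without overlap, with a log2 fold change of -0.49 (SE 0.23, adjusted p = 0.537 in limma). CDX2, which specifies intestinal epithelium, read 0.57, 0.79 and 0.67 FPKM at 2 kPa and 0.31, 0.27 and 0.07 FPKM at 25 kPa. It was also lower without overlap, at under 1 FPKM in every library, with a log2 fold change of -0.47 (SE 0.12, adjusted p = 0.224 in limma). KRT20 and CDX1 were under 0.3 FPKM in every library. Fibroblast markers (2 of 6 in the table) summed to 0.30 to 0.48 FPKM at 2 kPa and 0.41 to 1.05 FPKM at 25 kPa. Of the immune markers 1 of 5 was in the table, LYZ at 3.14 to 4.24 FPKM at 2 kPa and 1.72 to 2.72 FPKM at 25 kPa, and of the endothelial markers 0 of 4. Proliferation markers (8 of 10 in the table) summed to 194.5 to 228 FPKM at 2 kPa and 288.4 to 303 FPKM at 25 kPa. All 8 had a higher mean log2 value at 25 kPa, against 59.6% of all genes. Their median log2 fold change was 0.63, or 0.52 with equal library sums, and their smallest adjusted p in limma was 0.108. The part of these differences in the values of the translation genes was not tested.

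The levels of the genes spanned a wide range. On the FPKM scale, which is per length of transcript, the mean over the 6 libraries ran from 0.0717 FPKM for EIF5A to 3764 FPKM for EEF1A1, with a median of 13.8 FPKM against 2.61 FPKM for all genes. In 12 of 75 the mean was under 1 FPKM, as it was in 2721 of all 8529 genes. Genes for subunits of a single complex were far apart. Within eIF3, the scaffold that joins the small subunit to the mRNA, EIF3F averaged 208.8 FPKM and EIF3C 0.343 FPKM. In eIF2B the regulatory subunit gene EIF2B2 averaged 34.3 FPKM and the catalytic subunit gene EIF2B5 0.412 FPKM. The table does not say which transcripts a value covers, and genes with near-identical copies, such as EIF3C, EIF5A, EIF4A1 and EEF1A1, are uncertain because reads may be split between copies. SARS and EIF4G1, which have general roles in translation, were also listed low, at 0.22 to 1.94 FPKM and 0.17 to 0.50 FPKM, so their levels and differences are uncertain too. The same holds for EIF2B5, at 0.12 to 0.69 FPKM, and CARS, at 0.09 to 0.86 FPKM.

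**Figure D2:**
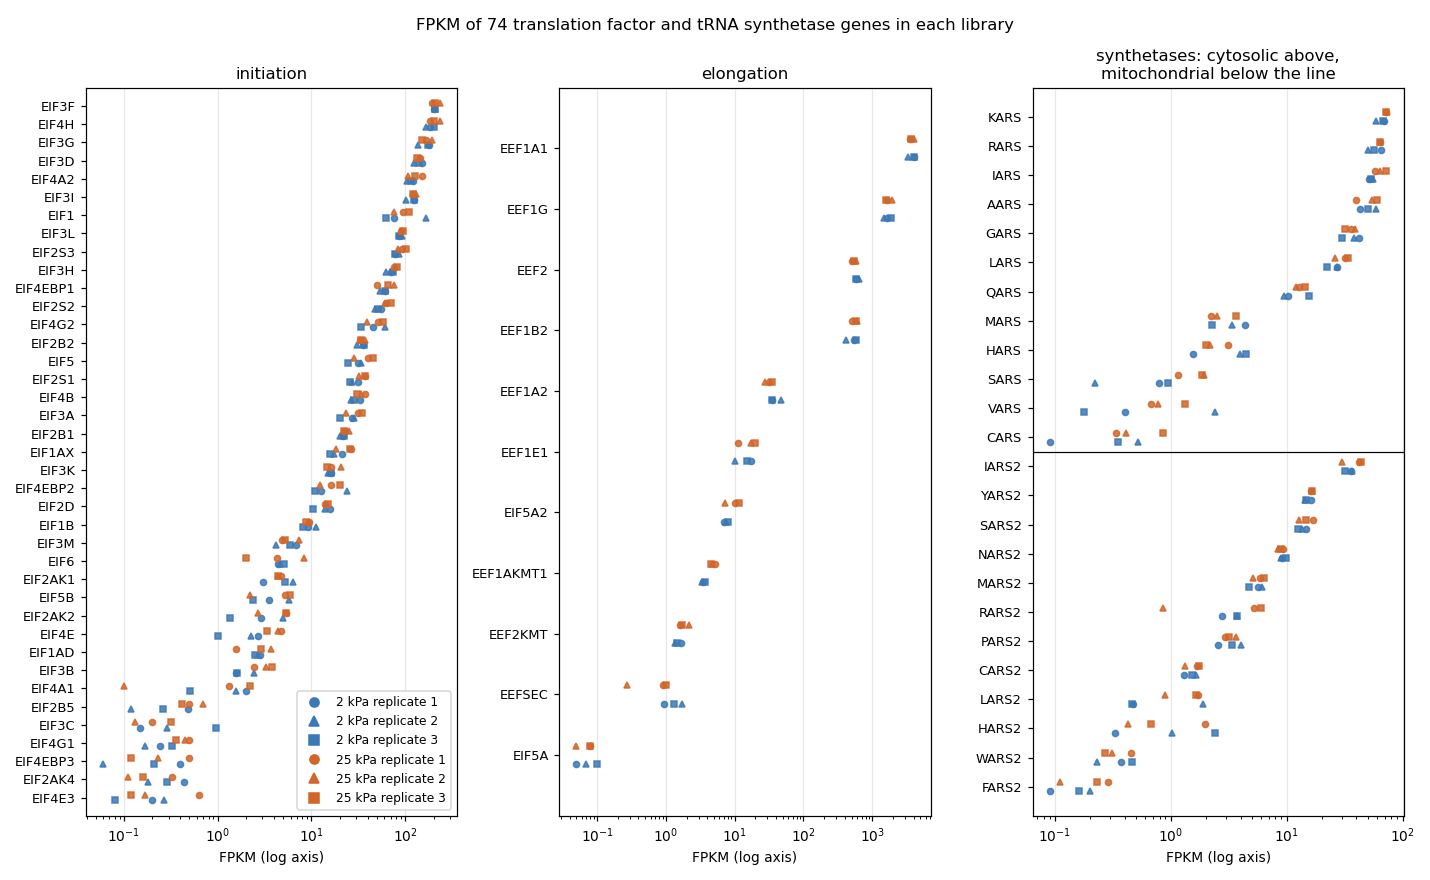
FPKM of 74 of the 75 genes in each of the 6 libraries on a log axis, by class, with blue points for 2 kPa and orange points for 25 kPa. The levels run from EIF5A, at 0.05 to 0.10 FPKM, to EEF1A1, at 3301 to 3996 FPKM, and for most genes the points of the groups overlap.

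The 3 subunits of eIF2 had the highest median log2 fold change of the initiation lists, 0.32, and 0.20 with equal library sums. EIF2S1, the alpha subunit that the stress kinases phosphorylate, read 31.0, 26.9 and 25.6 FPKM at 2 kPa and 37.5, 32.5 and 37.5 FPKM at 25 kPa. Every 25 kPa library lay above every 2 kPa library, with means of 27.8 ± 2.85 against 35.8 ± 2.87 FPKM (SD, n = 3) and a log2 fold change of 0.35 (SE 0.12, adjusted p = 0.356 in limma). The beta subunit gene EIF2S2 also had groups that did not overlap, at 55.6, 47.4 and 51.1 FPKM at 2 kPa and 62.6, 60.2 and 70.9 FPKM at 25 kPa, with means of 51.4 ± 4.10 against 64.6 ± 5.61 FPKM (SD, n = 3) and a difference of 0.32 (SE 0.12, adjusted p = 0.386 in limma) on the log2 scale. EIF2S3, the gamma subunit that binds GTP and the initiator tRNA, read 78.1, 85.3 and 77.4 FPKM at 2 kPa and 92.2, 82.8 and 101 FPKM at 25 kPa. Here the groups overlapped, since 25 kPa replicate 2 lay below 2 kPa replicate 2, and the log2 fold change was 0.19 (SE 0.12, adjusted p = 0.632 in limma). The unadjusted limma p was 0.0175 for EIF2S1 and 0.0209 for EIF2S2. With equal library sums it was 0.151 for EIF2S1 (log2 fold change 0.23) and 0.144 for EIF2S2 (0.20), and without 25 kPa replicate 3 it was 0.0648 for EIF2S1 (0.32) and 0.0941 for EIF2S2 (0.26). For EIF2S1 it was also 0.0628 without 2 kPa replicate 3 and 0.0636 without 25 kPa replicate 1. With median centring the unadjusted limma p was 0.0578 for EIF2S1 and 0.102 for EIF2S2, and with quantile normalisation 0.0479 and 0.0699. With the GC trend removed the log2 fold changes were 0.25 for EIF2S1, 0.28 for EIF2S2 and 0.11 for EIF2S3.

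eIF2B, the exchange factor that recharges eIF2 with GTP, was represented by 3 of its subunits, none of which passed the test, with a median log2 fold change of 0.11, or -0.008 with equal library sums. EIF2B1 read 21.8, 20.0 and 22.3 FPKM at 2 kPa and 22.6, 25.0 and 22.0 FPKM at 25 kPa, and EIF2B2 read 35.8, 30.3 and 36.1 FPKM at 2 kPa and 33.1, 37.3 and 33.4 FPKM at 25 kPa. The groups overlapped for both, with log2 fold changes of 0.11 (SE 0.11, adjusted p = 0.821 in limma) and 0.02 (SE 0.12, adjusted p = 0.97 in limma). EIF2B5, at 0.48, 0.12 and 0.26 FPKM at 2 kPa and 0.50, 0.69 and 0.42 FPKM at 25 kPa, was under 1 FPKM in every library, with overlapping groups and a log2 fold change of 0.26 (SE 0.13, adjusted p = 0.562 in limma).

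The 3 eIF2 alpha kinases in the table, which lacked EIF2AK3, had a median log2 fold change of -0.05, and none passed the test. EIF2AK1, the haem-regulated kinase, read 3.02, 6.40 and 5.20 FPKM at 2 kPa and 4.69, 4.41 and 4.43 FPKM at 25 kPa. EIF2AK2, or PKR, which responds to double-stranded RNA, read 2.93, 5.01 and 1.35 FPKM at 2 kPa and 5.31, 2.68 and 5.39 FPKM at 25 kPa, and EIF2AK4, or GCN2, which senses uncharged tRNA, read 0.44, 0.18 and 0.29 FPKM at 2 kPa and 0.33, 0.11 and 0.16 FPKM at 25 kPa. For each kinase the groups overlapped. The log2 fold changes were -0.05 (SE 0.25), 0.47 (SE 0.37) and -0.12 (SE 0.11) in that order, and the smallest of their adjusted p in limma was 0.742. The log2 fold change of EIF2AK2 depended on single libraries. It was 0.12 without 2 kPa replicate 3 and 0.80 without 2 kPa replicate 2, and 1.06 without both libraries of replicate 2, a choice made after the data were seen.

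Of the eIF4 group, which loads the mRNA, 7 of 8 genes had a higher mean log2 value at 25 kPa, against 59.6% of all genes. The median over the 8 was 0.17, and 0.07 with equal library sums. EIF4E, which binds the cap, read 2.70, 2.28 and 1.02 FPKM at 2 kPa and 4.68, 4.35 and 3.35 FPKM at 25 kPa. The groups did not overlap, the means were 2.00 ± 0.874 against 4.13 ± 0.693 FPKM (SD, n = 3), and the log2 fold change of 0.81 (SE 0.28, adjusted p = 0.357 in limma) was the highest of the 75 genes at a pseudocount of 1 with all libraries. At a pseudocount of 0.01 that of SARS was higher, at 1.54 against 1.14, and with the GC trend removed it was 0.71 against 0.70. The unadjusted p of EIF4E was 0.018 with all libraries. Without the lowest library, 2 kPa replicate 3, the log2 fold change was 0.55 and the unadjusted p no longer passed 0.05 (0.0591), and the same held without 25 kPa replicate 1 (0.73 and 0.0615). EIF4G1, the scaffold that ties EIF4E to the helicase, read 0.24, 0.17 and 0.33 FPKM at 2 kPa and 0.50, 0.45 and 0.36 FPKM at 25 kPa, without overlap but under 1 FPKM in every library, with a log2 fold change of 0.21 (SE 0.096, adjusted p = 0.523 in limma).

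The helicase and its partners overlapped between the groups. EIF4A2 read 120.2, 104 and 116 FPKM at 2 kPa and 151, 108 and 126 FPKM at 25 kPa, with a log2 fold change of 0.17 (SE 0.14, adjusted p = 0.777 in limma). Its paralogue EIF4A1 read 2.01, 1.57 and 0.51 FPKM at 2 kPa and 1.33, 0.10 and 2.19 FPKM at 25 kPa, so EIF4A2 was 57.6 to 1081 times as high within a library, and 25 kPa replicate 2 held the lowest EIF4A1 value. The ratio is uncertain, since reads of EIF4A1 may be split between copies. The log2 fold change of EIF4A1 was -0.17 (SE 0.41, adjusted p = 0.933 in limma), and it turned positive without 2 kPa replicate 1, without 25 kPa replicate 2, and without both libraries of replicate 2. The helicase cofactor gene EIF4B read 33.1, 26.4 and 28.4 FPKM at 2 kPa and 37.4, 33.5 and 30.8 FPKM at 25 kPa, and EIF4H read 182, 165 and 200.1 FPKM at 2 kPa and 182, 232 and 204 FPKM at 25 kPa. Both overlapped, with log2 fold changes of 0.21 (SE 0.13, adjusted p = 0.643 in limma) and 0.17 (SE 0.14, adjusted p = 0.746 in limma). The cap-binding homologue EIF4E3 read 0.20, 0.27 and 0.08 FPKM at 2 kPa and 0.64, 0.17 and 0.12 FPKM at 25 kPa. It had the lowest mean of the eIF4 genes over the 6 libraries, with a log2 fold change of 0.13 (SE 0.15, adjusted p = 0.848 in limma).

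The 3 genes for 4E-BP repressors overlapped between the groups. EIF4EBP1 read 60.9, 53.5 and 60.8 FPKM at 2 kPa and 50.1, 76.4 and 65.2 FPKM at 25 kPa, EIF4EBP2 read 12.8, 23.7 and 10.8 FPKM at 2 kPa and 16.1, 12.4 and 20.0 FPKM at 25 kPa, and EIF4EBP3 read 0.40, 0.06 and 0.21 FPKM at 2 kPa and 0.50, 0.23 and 0.12 FPKM at 25 kPa. Their log2 fold changes were 0.11 (SE 0.16), 0.09 (SE 0.28) and 0.07 (SE 0.14), with no adjusted p in limma under 0.886, and each of them changed sign when single libraries were left out. EIF4EBP1 and EIF4EBP2 also turned negative with equal library sums.

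**Figure D3:**
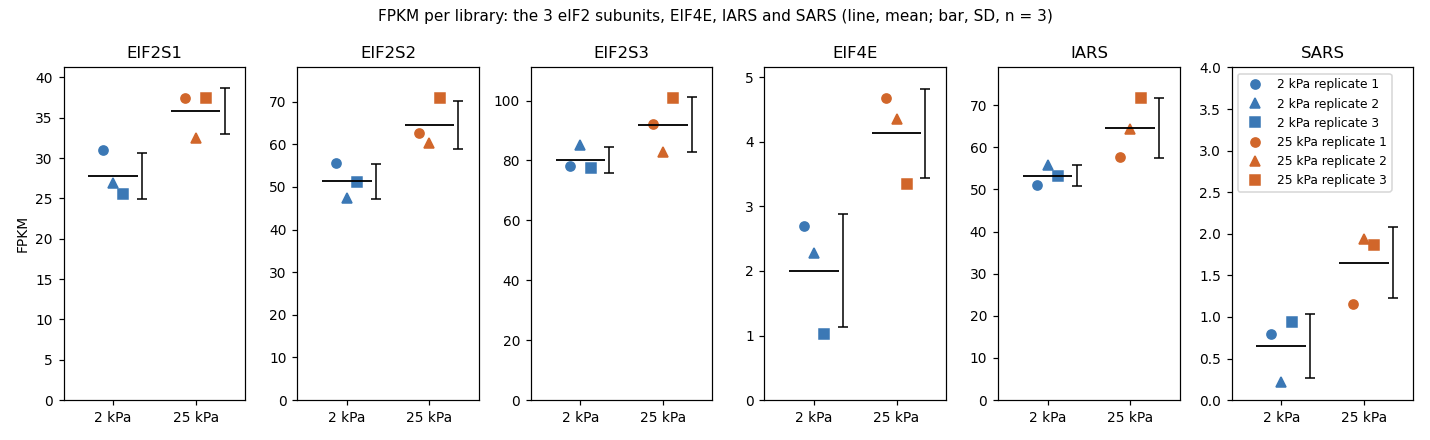
FPKM in each library for EIF2S1, EIF2S2, EIF2S3, EIF4E, IARS and SARS, with the libraries of each stiffness as points, the mean as a line and the SD as a bar (n = 3). The 25 kPa points lie above all 2 kPa points in every panel but that of EIF2S3, and each axis starts at 0.

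In 10 of the 11 eIF3 subunits in the table the mean log2 value was higher at 25 kPa, against 59.6% of all genes. It was higher in only 3 with equal library sums and in 5 with quantile normalisation. Their median difference of 0.05 equalled that of all genes at this rounding, and it was -0.07 and -0.02 under these scalings. EIF3B, an RNA-binding core subunit, read 1.57, 2.44 and 1.61 FPKM at 2 kPa and 2.43, 3.29 and 3.83 FPKM at 25 kPa. The groups touched, with 25 kPa replicate 1 just under 2 kPa replicate 2, and the log2 fold change was 0.54 (SE 0.24, adjusted p = 0.495 in limma), with an unadjusted p of 0.0517, which was under 0.05 in 12 of the 18 alternatives. EIF3H, a subunit with an MPN domain, read 70.8, 62.9 and 73.2 FPKM at 2 kPa and 75.6, 77.6 and 81.2 FPKM at 25 kPa, without overlap, with a log2 fold change of 0.18 (SE 0.11, adjusted p = 0.627 in limma). The subunit of highest level, EIF3F, read 200.1, 208 and 206 FPKM at 2 kPa and 194, 237 and 208 FPKM at 25 kPa, and that of lowest level, EIF3C, read 0.15, 0.29 and 0.97 FPKM at 2 kPa and 0.20, 0.13 and 0.32 FPKM at 25 kPa. Both overlapped, with log2 fold changes of 0.05 (SE 0.12, adjusted p = 0.93 in limma) and -0.24 (SE 0.19, adjusted p = 0.742 in limma), and the value of EIF3F turned negative with equal sums and with quantile normalisation. The other 7 subunits had log2 fold changes from 0.03 to 0.21.

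Among the 8 genes classed by symbol with start codon selection and subunit joining, 4 had a higher and 4 a lower mean log2 value at 25 kPa. EIF1AX, whose protein helps the small subunit scan, read 21.1, 17.6 and 15.6 FPKM at 2 kPa and 26.2, 18.2 and 25.6 FPKM at 25 kPa, and EIF5, the GTPase activator of eIF2, read 31.6, 33.6 and 24.7 FPKM at 2 kPa and 40.2, 28.3 and 44.8 FPKM at 25 kPa. Both overlapped, because 25 kPa replicate 2 lay inside the range of the 2 kPa libraries, with log2 fold changes of 0.34 (SE 0.17, adjusted p = 0.562 in limma) and 0.31 (SE 0.19, adjusted p = 0.631 in limma). EIF1, the gatekeeper of start codon choice, read 75.5, 167 and 62.2 FPKM at 2 kPa and 94.7, 75.3 and 108 FPKM at 25 kPa. The value of 2 kPa replicate 2 stood far above the other two, and the log2 fold change moved from -0.0084 (SE 0.32, adjusted p = 0.996 in limma) to 0.41 without that library (unadjusted p = 0.0372 in that fit). Its paralogue EIF1B read 9.25, 11.3 and 8.19 FPKM at 2 kPa and 9.45, 9.31 and 8.84 FPKM at 25 kPa, 7.60 to 14.8 times lower than EIF1 within a library, with a log2 fold change of -0.04 (SE 0.16, adjusted p = 0.959 in limma). EIF1AD, an eIF1A-like protein, was the lowest of the list at 2.81, 2.71 and 2.53 FPKM at 2 kPa and 1.58, 3.72 and 2.91 FPKM at 25 kPa, with overlapping groups and a log2 fold change of -0.02 (SE 0.26, adjusted p = 0.987 in limma). The remaining 3 genes, EIF2D, EIF5B and EIF6, had log2 fold changes from -0.11 to 0.14.

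Elongation factors held the highest levels and showed no difference past the test, with a median log2 fold change of 0.03 over the 11 genes, or -0.01 with equal library sums. Leaving out 1 library moved this median to between -0.0416 (without 2 kPa replicate 2) and 0.12 (without 2 kPa replicate 3). EEF1A1, which brings aminoacyl-tRNA to the ribosome, read 3996, 3301 and 3992 FPKM at 2 kPa and 3592, 3990 and 3712 FPKM at 25 kPa. The groups overlapped, with a log2 fold change of 0.0049 and a 95% confidence interval from -0.68 to 0.69 in limma. The fit draws the variance of a gene toward that of genes of similar level. This interval is therefore not a measure of the spread of EEF1A1 alone, whose highest library was 1.21 times its lowest. EEF1A2, the paralogue best known from muscle and neurons, read 34.9, 47.2 and 35.4 FPKM at 2 kPa and 31.6, 28.1 and 35.3 FPKM at 25 kPa. Only 25 kPa replicate 3 reached into the 2 kPa range, and the log2 fold change was -0.29 (SE 0.15, adjusted p = 0.563 in limma). It was -0.15 without 2 kPa replicate 2 and -0.17 with the GC trend removed, and its unadjusted p was 0.0351 with quantile normalisation and 0.0324 with median centring. EEF1A1 was 70.0 to 142.1 times as high as EEF1A2 within a library.

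EEFSEC, which delivers selenocysteinyl-tRNA, had the lowest log2 fold change of the 75 genes with all libraries and a pseudocount of 1. It read 0.94, 1.71 and 1.32 FPKM at 2 kPa and 0.90, 0.27 and 1.02 FPKM at 25 kPa, with overlapping groups and a log2 fold change of -0.44 (SE 0.23, adjusted p = 0.569 in limma). It was -0.23 without 25 kPa replicate 2, the lowest library, and its unadjusted p was 0.0402 with quantile normalisation and 0.0357 with median centring. The hypusine-bearing factors, which help the ribosome through difficult peptide bonds, were led by EIF5A2, at 7.00, 7.57 and 7.88 FPKM at 2 kPa and 10.1, 7.25 and 11.6 FPKM at 25 kPa. EIF5A read 0.05, 0.07 and 0.10 FPKM at 2 kPa and 0.08, 0.05 and 0.08 FPKM at 25 kPa, so that EIF5A2 was 78.8 to 145 times as high within a library. This order is uncertain, since reads of EIF5A may be split between copies. The log2 fold changes of EIF5A2 and EIF5A were 0.31 (SE 0.19, adjusted p = 0.631 in limma) and -0.0044 (SE 0.058, adjusted p = 0.988 in limma). Of the methyltransferases that modify elongation factors, EEF1AKMT1 read 3.42, 3.40 and 3.70 FPKM at 2 kPa and 5.11, 4.71 and 4.49 FPKM at 25 kPa and EEF2KMT read 1.68, 1.36 and 1.43 FPKM at 2 kPa and 1.59, 2.19 and 1.69 FPKM at 25 kPa. The groups did not overlap for EEF1AKMT1, with a log2 fold change of 0.36 (SE 0.18, adjusted p = 0.568 in limma), and overlapped for EEF2KMT, with 0.18 (SE 0.20, adjusted p = 0.848 in limma). The other 4 genes of the class, EEF1B2, EEF1G, EEF2 and EEF1E1, the last a scaffold of the multisynthetase complex, had log2 fold changes from -0.13 to 0.16.

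As a share of the FPKM sum the 75 genes were lower at 25 kPa. They took 3.84%, 3.97% and 3.88% of the sum in the 2 kPa libraries and 3.68%, 3.58% and 3.73% in the 25 kPa libraries. The means were 3.90% ± 0.0688 and 3.66% ± 0.0771 (SD, n = 3), and the groups did not overlap. An exact permutation test of 3 libraries against 3 cannot give a two-sided p under 0.10. The summed FPKM of the 75 genes overlapped, at 8957, 7989 and 9145 at 2 kPa and 8517, 9416 and 8786 at 25 kPa. The share was mostly that of 4 genes, EEF1A1, EEF1G, EEF2 and EEF1B2, which held 72.9% to 77.0% of the FPKM of the 75. The 11 elongation genes alone took 2.93%, 2.93% and 3.01% at 2 kPa and 2.72%, 2.72% and 2.75% at 25 kPa. Their summed FPKM overlapped, at 6835, 5895 and 7103 at 2 kPa and 6297, 7155 and 6480 at 25 kPa. Without those 4 the remaining 71 genes took 0.894% to 1.08% at 2 kPa and 0.883% to 1.01% at 25 kPa, which overlapped. The initiation genes summed to 1717, 1690 and 1652 FPKM at 2 kPa and 1794, 1840 and 1843 FPKM at 25 kPa, without overlap. As a share of the sum they overlapped, at 0.701% to 0.841% and 0.699% to 0.783%. The cytosolic synthetases likewise summed to 304.2 to 315.3 FPKM at 2 kPa and 320.9 to 358.4 FPKM at 25 kPa, and as a share of the sum they overlapped, at 0.129% to 0.154% and 0.13% to 0.152%.

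**Figure D4:**
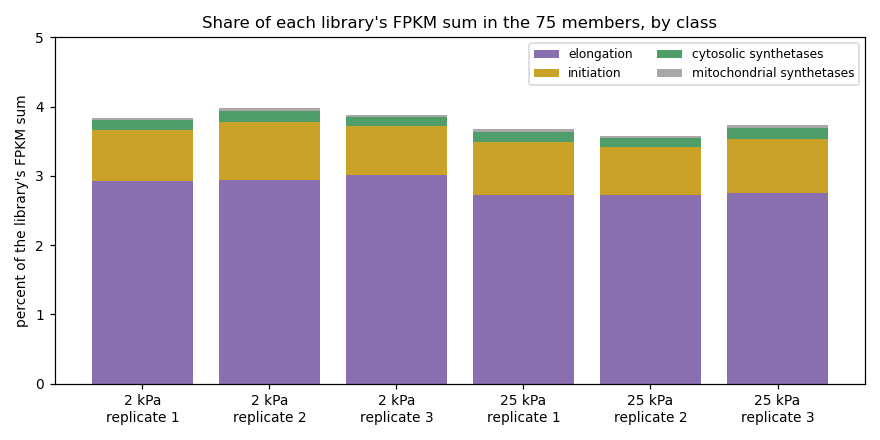
Percent of each library's FPKM sum taken by the 75 genes, as stacked bars from 0 with 1 bar per library, coloured by class. The elongation genes make up the lowest and tallest part, 2.93% to 3.01% at 2 kPa and 2.72% to 2.75% at 25 kPa, and the whole bars reach 3.84% to 3.97% and 3.58% to 3.73%.

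Of the 12 cytosolic synthetases 8 had a higher mean log2 value at 25 kPa, and their median log2 fold change was 0.16, or 0.03 with equal library sums. It was 0.0912 to 0.0936 without 2 kPa replicate 1, 2 kPa replicate 2 or 25 kPa replicate 3. SARS, which charges serine, read 0.79, 0.22 and 0.94 FPKM at 2 kPa and 1.16, 1.94 and 1.86 FPKM at 25 kPa. The groups did not overlap, the means were 0.65 ± 0.38 against 1.65 ± 0.429 FPKM (SD, n = 3), and the log2 fold change was 0.70 (SE 0.23, adjusted p = 0.349 in limma). Its unadjusted p was 0.0153 with all libraries. The lowest value was that of 2 kPa replicate 2, and without that library the log2 fold change was 0.50 and the unadjusted p no longer passed 0.05 (0.0628). IARS read 51.0, 55.8 and 53.1 FPKM at 2 kPa and 57.6, 64.4 and 71.7 FPKM at 25 kPa, without overlap, with means of 53.3 ± 2.40 against 64.6 ± 7.07 FPKM (SD, n = 3). Its log2 fold change was 0.27 (SE 0.12, adjusted p = 0.483 in limma), and its unadjusted p of 0.0469 was under 0.05 in 3 of the 18 alternatives.

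The other synthetases did not reach an unadjusted p of 0.05. The lysyl enzyme KARS had the highest level of the class and groups that did not overlap, at 68.9, 58.9 and 68.2 FPKM at 2 kPa and 71.8, 73.3 and 72.4 FPKM at 25 kPa, with a log2 fold change of 0.15 (SE 0.11, adjusted p = 0.705 in limma). The leucyl enzyme LARS read 27.0, 27.0 and 22.3 FPKM at 2 kPa and 31.6, 26.0 and 34.0 FPKM at 25 kPa, and the arginyl enzyme RARS read 65.7, 50.8 and 56.5 FPKM at 2 kPa and 64.4, 64.2 and 64.2 FPKM at 25 kPa. Both overlapped, with log2 fold changes of 0.25 (SE 0.14, adjusted p = 0.593 in limma) and 0.16 (SE 0.12, adjusted p = 0.719 in limma). The cysteinyl enzyme CARS had the lowest level, at 0.09, 0.52 and 0.35 FPKM at 2 kPa and 0.34, 0.41 and 0.86 FPKM at 25 kPa, with a log2 fold change of 0.22 (SE 0.17, adjusted p = 0.735 in limma). The remaining 6, AARS, GARS, HARS, MARS, QARS and VARS, ran from -0.27 to 0.18.

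Promoters of several cytosolic synthetases carry a letter pattern known from amino acid response elements, which ATF4 and C/EBP proteins bind when the integrated stress response is on. The pattern TTGCATCA was searched on both strands of the RefSeq windows (GRCh38.p14) from 250 bases before to 50 bases after each gene start. It was found in 4 of the 10 cytosolic synthetases with an entry (40.0%), in 0 of 32 initiation genes, 0 of 8 elongation genes and 0 of 12 mitochondrial synthetases. Over all promoters of this length the share was 1.08% (295 of 27305 genes), and over those of genes of the table it was 0.588% (40 of 6802). The search was chosen after the values were known. The 4 stretches, chosen because they hold the pattern, are printed 5′ to 3′ on the strand of the gene, with the pattern in capitals.
CARS, chr11:3057402-3057441, minus strand: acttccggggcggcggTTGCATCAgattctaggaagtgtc
MARS, chr12:57488048-57488087, plus strand: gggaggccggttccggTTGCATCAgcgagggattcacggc
IARS, chr9:92293687-92293726, minus strand: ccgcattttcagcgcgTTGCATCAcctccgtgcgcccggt
AARS, chr16:70289670-70289709, minus strand: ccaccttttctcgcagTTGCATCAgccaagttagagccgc
The genes with the pattern did not share a direction: the log2 fold changes were 0.22 for CARS, -0.18 for MARS, 0.27 for IARS and -0.0065 for AARS, and none passed the test. The promoters of VARS and LARS were not in the tables used here, and neither were those of EIF3L, EEF1AKMT1, EIF2S2, EIF3A, EEF2KMT, EIF2AK1, EIF3H, EIF4EBP1, EEF1A2 and EIF3G.

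The 13 mitochondrial synthetases had a median log2 fold change of 0.07, or -0.02 with equal library sums, and 0 had an unadjusted p under 0.05 or groups without overlap. Leaving out 1 library moved the median to between 0.0299 (without 25 kPa replicate 3) and 0.13 (without 25 kPa replicate 2), with 0.0336 and 0.0344 without replicate 1 at 2 kPa and 25 kPa and 0.10 without 2 kPa replicate 2. The gene of highest level, IARS2, read 35.6, 36.6 and 32.0 FPKM at 2 kPa and 41.7, 30.1 and 43.6 FPKM at 25 kPa, with a log2 fold change of 0.13 (SE 0.15, adjusted p = 0.853 in limma). In it 25 kPa replicate 2 lay below the 2 kPa libraries, while the other 25 kPa libraries lay above them. The phenylalanyl enzyme FARS2 was the lowest of the list, at 0.09, 0.20 and 0.16 FPKM at 2 kPa and 0.29, 0.11 and 0.23 FPKM at 25 kPa, with a log2 fold change of 0.07 (SE 0.084, adjusted p = 0.853 in limma). A further 10 ran from -0.12 to 0.38.

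The spread within a group followed transcript length and GC content in part of the libraries. For each library, the log2 value of a gene minus the mean of the other two libraries of its group was set against length, taken as that of the longest coding transcript in GENCODE. Over the 75 genes Spearman's rho was 0.337 in 2 kPa replicate 2, -0.336 in 2 kPa replicate 3 and -0.307 in 25 kPa replicate 2, close to 0.376, -0.334 and -0.330 over the 8368 genes with a length. In 2 kPa replicate 1, 25 kPa replicate 1 and 25 kPa replicate 3 it was -0.0667, 0.184 and 0.202. Against GC content the same differences gave 0.351 in 25 kPa replicate 2, -0.289 in 25 kPa replicate 3 and -0.163 in 25 kPa replicate 1 over all genes, with 0.285, -0.15 and -0.308 over the 75. In the 2 kPa libraries GC gave -0.0442 to 0.019 over all genes and -0.242 to 0.157 over the 75. Such differences are taken within a group, so they cannot show a shift between stiffness levels. Against the mean of all 6 libraries, rho with GC over all genes was 0.176, 0.16 and 0.165 at 2 kPa. In 25 kPa replicates 1, 2 and 3 it was -0.304, 0.15 and -0.423. These correlations are across genes of the same libraries and describe the libraries only. The 23 genes with transcripts of 4000 nt or more had a median difference from the other libraries of the group of -0.20 in 25 kPa replicate 2. For the 18 with transcripts under 2000 nt it was 0.06. When both libraries of replicate 2 were left out, after the data were seen, 20 of the 75 genes (26.7%) had an unadjusted p under 0.05 with higher values at 25 kPa, against 13.5% of all genes, 0 were lower, and 0 passed the adjusted threshold. In the libraries left, rho with length over all genes, against the mean of all 6, was -0.124 and -0.294 at 2 kPa. At 25 kPa it was 0.144 and 0.209. Both the length and the GC trend thus ran with stiffness in these libraries, and their part in this count was not tested. With the length trend removed from all 6 libraries the count was 6 (8.0%), against 8.39% of all genes. With the GC trend removed it was also 6, against 7.13%. The part of length and GC content in the differences between stiffness levels was not tested beyond these values.

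**Figure D5:**
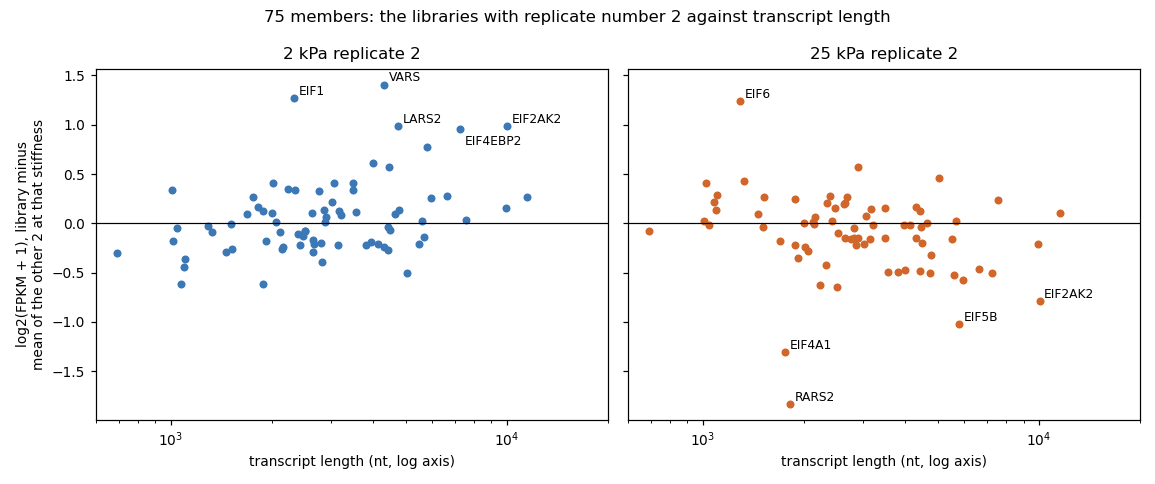
Log2(FPKM + 1) of each of the 75 genes in replicate 2 minus the mean of the other two libraries of its group, against transcript length in nt on a log axis, for 2 kPa on the left and 25 kPa on the right, with the 5 farthest genes of each panel named. The points tend upward with length at 2 kPa (Spearman's rho 0.337) and downward at 25 kPa (-0.307).

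The other genes of the pathway, 71 genes on 5 lists, also held 0 with an adjusted p under 0.05 in limma. At an unadjusted p under 0.05 there were 4 of 71 higher at 25 kPa, against 6.96% of all genes, and 2 of 71 lower, against 3.19%. Of the synthetases and scaffolds outside the symbol rule (10 genes, median log2 fold change 0.10) 0 reached an unadjusted p of 0.05. DTD1, which clears D-amino acids from tRNA, had the smallest p among the higher genes, at 0.25 (SE 0.12), and TARSL2 among the lower, at -0.17 (SE 0.22). The multisynthetase complex joins several cytosolic synthetases with the scaffolds AIMP1, AIMP2 and EEF1E1, so its list overlaps the 75 genes. Of its 10 genes 9 had higher mean log2 values at 25 kPa, against 59.6% of all genes, with a median of 0.17. With equal sums these were also 9, against 45.6% of all genes, and 0.05. The log2 fold changes ran from MARS at -0.18 to IARS at 0.27, and only IARS had an unadjusted p under 0.05 in limma. AIMP1 and AIMP2 were under 1 FPKM in every library. Among the other cytosolic factors (14 genes, median 0.08) DENR, which with MCTS1 recycles and reinitiates ribosomes, read 15.6, 15.2 and 14.5 FPKM at 2 kPa and 20.1, 17.0 and 20.4 FPKM at 25 kPa. The groups did not overlap, and the log2 fold change was 0.33 (SE 0.12, adjusted p = 0.412 in limma). DPH1, which starts the diphthamide modification of eEF2, had -0.26 (SE 0.13, adjusted p = 0.55 in limma). The mitochondrial factors (10 genes, median 0.08) held 0 genes at an unadjusted p under 0.05. Those of smallest p in each direction were ICT1, a mitochondrial peptidyl-tRNA hydrolase, at 0.21 (SE 0.12, adjusted p = 0.626 in limma), and GUF1, a mitochondrial elongation factor, at -0.31 (SE 0.24, adjusted p = 0.733 in limma).

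Among the genes that signal to translation (16 genes, median 0.03) RHEB, the GTPase that switches on mTORC1, read 66.8, 65.4 and 74.0 FPKM at 2 kPa and 80.2, 88.3 and 82.8 FPKM at 25 kPa. The groups did not overlap, with a log2 fold change of 0.28 (SE 0.11, adjusted p = 0.409 in limma), and MKNK2, an eIF4E kinase, had -0.18 (SE 0.19, adjusted p = 0.823 in limma). The targets of the integrated stress response (21 genes, median 0.03) had 2 higher and 2 lower genes at an unadjusted p under 0.05, against 6.96% and 3.19% of all genes. MTHFD2, a mitochondrial folate enzyme, read 73.8, 65.8 and 70.1 FPKM at 2 kPa and 84.8, 83.6 and 94.3 FPKM at 25 kPa, with a log2 fold change of 0.32 (SE 0.11, adjusted p = 0.353 in limma). SLC1A5, a glutamine and neutral amino acid transporter, read 681, 647 and 569 FPKM at 2 kPa and 389, 446 and 344 FPKM at 25 kPa. In SLC1A5 every 25 kPa library lay below every 2 kPa library, with a log2 fold change of -0.69 (SE 0.16, adjusted p = 0.198 in limma). The remaining 2, named after their values were seen, were the cystine transporter SLC7A11, at 0.60 (SE 0.24, adjusted p = 0.448 in limma), and the serine synthesis enzyme PSPH, at -0.49 (SE 0.21, adjusted p = 0.466 in limma). None of these 4 passed the test. With equal library sums the medians were -0.03 over the signalling genes and -0.09 over the targets.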

How the data were processed

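RNA sequencing values of 6 libraries were analysed. The authors deposited FPKM per gene symbol and library, without pooling of replicates. The submitters' processing notes name HISAT, StringTie, Bowtie2, RSEM and hg18, with no roles or versions. The study names DESeq2, a count method, which was not run because FPKM are not counts, and FPKM do not give the depth of a library, so no counting error can be stated. From the deposited FPKM, log2(FPKM + 1) was compared between 25 kPa and 2 kPa over all 8529 genes with limma 3.58.1 in R 4.3.3 (eBayes with a trend, two-sided), with Benjamini-Hochberg adjustment over all genes. Fold changes on this scale understate the change of genes of low level. The script was tested on simulated data. Genes whose symbols the table gives as dates (11) were tested unnamed.

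Groups and replicate numbers came from the sample labels. The members and lists were chosen with earlier results of these data known. Values are given in every library for the 24 members of smallest p, the eIF2, eIF2B, eIF2 alpha kinase and eIF4E repressor genes, EIF4E, 4 paralogue pairs, and the members of highest and lowest mean in each role (44 in all, of which 1 is not reported here). The other 31 are given by range. In each list of other pathway genes the gene of smallest p in each direction is named. Length and GC content were those of the longest coding transcript in GENCODE 29, on GRCh38 (8368 genes, 98.1%, and all 75 members). Promoter windows came from RefSeq GRCh38.p14 (62 of 75 members), and no coordinates were converted to the build of the files. The alternatives were other pseudocounts (0.1 and 0.01), a mean of at least 1 FPKM, equal library sums, quantile normalisation, median centring, no variance trend, a replicate block, GC or length trends removed (lowess, span 0.3), and each library left out. Leaving out both libraries of replicate 2, and removing GC and length trends together, were added after the data were seen.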

Additional observations from a re-analysis of the deposited data

How the results depend on the processing

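Under the 18 alternatives 0 of the members tested had an adjusted p under 0.05 in limma, with all 75 tested except at a mean of at least 1 FPKM, where 63 were. The counts that follow are at an unadjusted p under 0.05, in the direction of 25 kPa against 2 kPa. With equal library sums, 2 members and 0 other pathway genes were higher, and the median log2 fold change was -0.00796 over all members and over the initiation genes and 0.0336 over the cytosolic synthetases. With quantile normalisation 2 members were lower and 1 other pathway gene was higher, and the medians were 0.0283 over all members, 0.0283 over initiation and -0.0646 over elongation. With median centring 3 members were higher and 2 lower, 1 other gene was higher, and the medians were 0.0494 over all members and 0.0594 over initiation. These scalings moved the split over all genes from 6.96% higher and 3.19% lower to 3.48% and 4.67% (equal sums), 5.52% and 5.29% (quantile) and 4.57% and 4.58% (median centring). With a pseudocount of 0.1, 1 other gene was lower. With the GC trend removed, 2 other genes were higher and the median over initiation was 0.0784, and with GC and length trends removed together the medians over all members and over initiation were 0.0685. Leaving out 1 library at a time gave 2 to 11 higher members, 0 to 7 higher and 1 to 3 lower other pathway genes, and medians of 0.0757 to 0.14 over initiation, -0.0416 to 0.124 over elongation, 0.0912 to 0.179 over the cytosolic and 0.0299 to 0.133 over the mitochondrial synthetases. The most higher members were found without 25 kPa replicate 2 (11) and without 2 kPa replicate 2 (9), and the fewest without 25 kPa replicate 3 (2). Without both libraries of replicate 2 there were 20 higher members and 12 higher other genes, with medians of 0.14 over initiation, -0.0725 over elongation and 0.17 over the mitochondrial synthetases. In the libraries this left, the trends with length and GC content ran with stiffness. Of the 44 members chosen for single values, 14 had a log2 fold change that changed sign under at least 1 alternative, and none of these had passed the test.

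The values cannot settle whether the replicate numbers pair the libraries, since the deviations of 3 libraries from their group mean sum to 0. Over all genes the correlation of these deviations was 0.115, -0.267 and -0.125 for numbers 1, 2 and 3. Between libraries of unlike number it ran from -0.238 to 0.294. With the replicate block, 4 members and 1 other pathway gene were higher, 0 members and 1 other gene were lower, and 3 of all genes had an adjusted p under 0.05. With 3 libraries a group and depth unknown, an adjusted p over the threshold does not show that a gene was the same at both stiffness levels.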

Other observations

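The ratio of the summed FPKM of the 3 repressor genes EIF4EBP1, EIF4EBP2 and EIF4EBP3 to that of EIF4E was 27.4, 33.9 and 70.5 in the 2 kPa libraries and 14.3, 20.5 and 25.5 in the 25 kPa libraries. The groups did not overlap. The ratio was chosen after the values were seen, has no test, and rests on an EIF4E level of 1.02 to 4.68 FPKM, while the 4E-BP proteins are regulated by phosphorylation, which was not measured here.

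For 7 amino acids both the cytosolic and the mitochondrial synthetase were among the 75 genes. The cytosolic gene was the higher one in every library for 4 of them, and was 1.57 to 5.07 times as high for HARS, 1.38 to 2.14 times for IARS, 14.2 to 57.4 times for LARS and 10.6 to 74.6 times for RARS. The mitochondrial gene was the higher one in every library for CARS2, MARS2 and SARS2. SARS read 0.22 to 1.94 FPKM and SARS2 12.4 to 16.9 FPKM. CARS read 0.09 to 0.86 FPKM and CARS2 1.30 to 1.77 FPKM. The table does not say which transcripts the values cover, and the low levels of SARS and CARS make the order in these pairs uncertain.

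In single libraries, members lay more than 1 log2 unit from the mean of the other two of their group. This was so for HARS in 2 kPa replicate 1, EIF1 and VARS in 2 kPa replicate 2, EIF2AK2 and HARS2 in 2 kPa replicate 3, EIF4A1, EIF5B, EIF6 and RARS2 in 25 kPa replicate 2, and EIF6 and RARS2 in 25 kPa replicate 3. RARS2 read 2.75, 3.70 and 3.71 FPKM at 2 kPa and 5.20, 0.86 and 6.05 FPKM at 25 kPa, and EIF6, which keeps the ribosomal subunits apart, read 4.37, 4.62 and 5.14 FPKM at 2 kPa and 4.26, 8.41 and 2.00 FPKM at 25 kPa. In both the widest gap was between 25 kPa replicate 2 and 25 kPa replicate 3, in opposite directions. The cause was not tested.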
